A study of Homo sapiens with 8 samples.

Results

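The genes described here are 10 that mark the type 1 alveolar cell, namely AGER, PDPN, HOPX, CAV1, CAV2, CLIC5, GPRC5A, EMP2, AQP5 and RTKN2. They were chosen by symbol, and all 10 were found among the 46427 symbols of the count table. Of these 10 genes, 9 passed the filter on low counts, as did 18303 genes in all. AQP5 had 0 to 4 counts in each library, which is at about the counting floor of 3 counts, and was not tested.

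The libraries came from H7 human embryonic stem cells, genotype WT, that had been differentiated into cells labelled as type 2 alveolar cells (diff-AEC2). Every group shared this route: 21 days to the lung progenitor stage, 3 days of submerged culture in inserts and then 7 days with air on the apical side. The groups were untreated cells and cells given bleomycin, a drug that breaks DNA, at 24, 240 or 480 µg/ml in 500 µl on the apical side for 24 hours. Each of the 4 groups had 2 libraries. The stated purpose of the series is to see whether such cells take on a fibrosis-related expression pattern. The cells are 1 line, the labels name no vehicle for the untreated group and do not tell if a group's 2 libraries were separate cultures. The p-values therefore rest on library-to-library spread alone, and that spread may be technical. The labelled stock, 10 µg/ml, is weaker than each dose.

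Type 1 alveolar cells are the broad, very thin cells that cover most of the gas-exchange surface, and they arise from type 2 cells after injury to the lung. They are recognised by membrane proteins on their apical and basal faces, by abundant caveolae, which are flask-shaped pits of the plasma membrane, and by proteins that shape the actin cytoskeleton. In culture, type 2 cells tend to lose surfactant genes and gain some of these markers, while several of the genes are also used by other epithelia, endothelium, mesothelium or fibroblasts.

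Libraries held 53431773 to 67715984 counts, and levels are given as CPM, counts scaled to a common library size and corrected for composition (scaled CPM). The labelled cell type was only partly seen in its markers. SFTPC, the surfactant gene that defines type 2 cells, reached at most 7 counts in a library and SFTPA1 at most 2. In untreated libraries SFTPB had 830 and 977 counts, ABCA3 664 and 821, and SLC34A2 782 and 888. The summed scaled CPM of 12 type 2 genes was 206 to 213 in untreated libraries and 127 to 132 at 480 µg/ml. LPCAT1 alone had a mean of 118 untreated and 60.2 at 480 µg/ml. By the edgeR test below, 4 of the 9 tested type 2 genes were lower at 480 µg/ml and 1 (ABCA3) was higher. Among all tested genes 13.9% were lower and 13.9% higher at that dose. The summed scaled CPM of 7 hepatic genes, such as AFP and ALB, was 53166 to 54570 untreated and 40092 to 58114 at 24 µg/ml. It was 76553 to 83446 at 240 µg/ml and 63816 to 68001 at 480 µg/ml. By the same test 2 of the 7 were higher and none lower at 480 µg/ml. AFP and ALB were not called there, with log2 fold changes of 0.20 ± 0.16 and 0.28 ± 0.26 (SE). The summed scaled CPM of 8 intestinal genes was 2452 to 2493 untreated and 2560 to 2995 at 480 µg/ml. CDH17 alone had a mean of 1906 untreated and 2064 at 480 µg/ml. Of the 7 intestinal genes tested, 1 was higher and 2 were lower at 480 µg/ml. In such bulk RNA, fewer cells of a type and less RNA per cell cannot be told apart. The share of each of these cell types in the results below was not tested.

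CAV1 and CAV2 lie next to each other on chromosome 7, 16467 bases apart and in the same orientation, and PDPN, EMP2 and RTKN2 were lower at the highest dose, so the 250 bases before the start of these genes are shown as the sequence context of the results. The sequences are from RefSeq, build GRCh38.p14, and are written 5′ to 3′ on the gene's own strand. A promoter of this table was matched for 9 of the 10 genes, GPRC5A being the one without a match. Capitals mark the GC box, GGGCGG on either strand, in all of them, and the TATA box letters, TATAAA on either strand, in PDPN, where they lie on the opposite strand. The windows are chr7:116499488-116499737 (+) for CAV2, chr7:116524759-116525008 (+) for CAV1, chr10:62268845-62269094 (−) for RTKN2, chr16:10580599-10580848 (−) for EMP2 and chr1:13583507-13583756 (+) for PDPN.
CAV2: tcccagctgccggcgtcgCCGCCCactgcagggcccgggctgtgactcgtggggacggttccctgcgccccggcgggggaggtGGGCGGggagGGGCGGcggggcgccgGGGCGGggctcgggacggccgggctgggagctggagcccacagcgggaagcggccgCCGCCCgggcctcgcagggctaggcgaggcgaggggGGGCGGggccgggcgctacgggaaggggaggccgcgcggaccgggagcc
CAV1: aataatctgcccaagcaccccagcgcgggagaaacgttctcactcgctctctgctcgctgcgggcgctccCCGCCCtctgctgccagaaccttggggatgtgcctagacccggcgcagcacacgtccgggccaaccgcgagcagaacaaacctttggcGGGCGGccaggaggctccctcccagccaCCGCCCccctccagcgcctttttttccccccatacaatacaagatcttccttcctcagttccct
RTKN2: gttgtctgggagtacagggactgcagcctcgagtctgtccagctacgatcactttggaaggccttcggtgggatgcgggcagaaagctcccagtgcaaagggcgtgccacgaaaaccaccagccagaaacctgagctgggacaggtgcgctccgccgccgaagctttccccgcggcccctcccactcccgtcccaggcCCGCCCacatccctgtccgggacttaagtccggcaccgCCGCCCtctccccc
EMP2: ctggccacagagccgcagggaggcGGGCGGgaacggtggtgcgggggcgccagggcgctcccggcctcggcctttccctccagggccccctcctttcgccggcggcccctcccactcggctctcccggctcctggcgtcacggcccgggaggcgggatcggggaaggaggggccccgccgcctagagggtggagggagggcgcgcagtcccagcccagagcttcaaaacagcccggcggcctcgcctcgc
PDPN: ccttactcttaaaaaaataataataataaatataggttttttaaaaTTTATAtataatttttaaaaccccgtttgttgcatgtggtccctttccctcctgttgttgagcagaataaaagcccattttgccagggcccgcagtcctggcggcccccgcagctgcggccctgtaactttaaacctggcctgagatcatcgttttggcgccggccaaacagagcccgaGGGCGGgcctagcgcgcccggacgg

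These promoters differed in base composition, from 83.2% G and C with 35 CpG pairs in CAV2 to 48.8% with 14 CpG pairs in PDPN. CAV1 stood between them at 63.6% with 18 CpG pairs. The CAV2 window held 6 GC boxes and the CAV1 window 3. GC boxes were found in 7 of the 9 matched promoters and in 42.3% of 27305 promoter windows of the same length. The TEAD letters GGAATG were in 1 of the 9 (AGER) against 11.9% of all, the TATA box in 1 (PDPN) against 11.1%, and the CCAAT box in 1 (CLIC5) against 33.0%. The AP-1 letters TGANTCA were in none of the 9 and in 6.6% of all windows. No motif searched overlapped another of a different kind in the sequences shown, and a match of letters is a description only.

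In untreated cells the 10 genes covered a wide range of levels. Compared per gene length, as deposited TPM (length-scaled values that share a common total), GPRC5A stood first at 118 ± 2.84 TPM (SD, n = 2), above 93.7% of the tested genes. CAV2 followed at 12.1 ± 0.848 TPM and CLIC5 at 11.1 ± 1.00 TPM. RTKN2 (6.42 TPM), CAV1 (5.88 TPM), EMP2 (5.56 TPM) and PDPN (5.0 TPM) were near the middle of all tested genes, with 43.7% to 47.3% of them below. HOPX and AGER, at 1.62 and 1.51 TPM, were above only 30.7% and 30.0% of tested genes, and AQP5 had 0.0771 TPM. GPRC5A alone was 69.4% to 71.7% of the summed TPM of the 10 genes in untreated libraries and 39.9% to 50.3% in the libraries of the 2 higher doses. Without GPRC5A the sum of the other genes was 33.9 to 52.9 TPM over all 8 libraries.

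**Figure D1:**
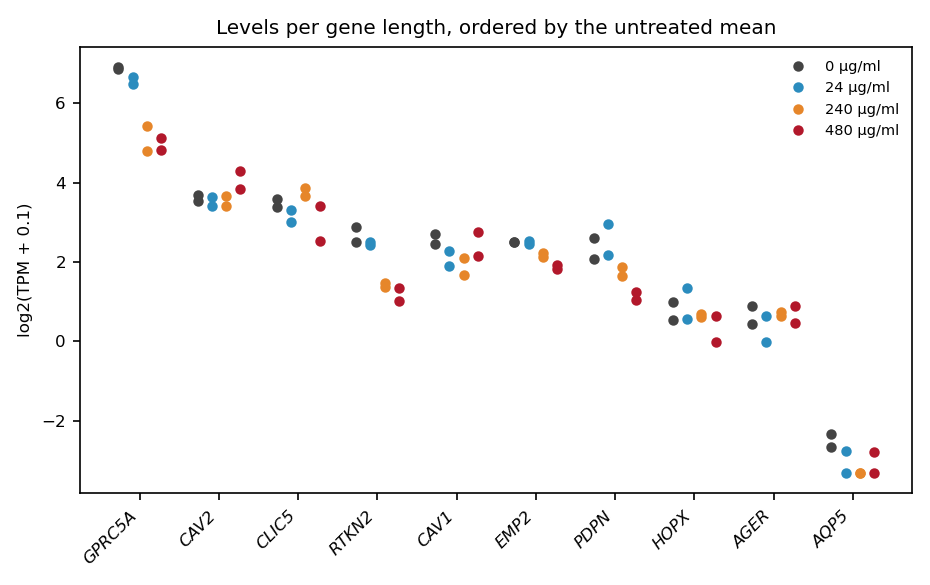
Level of each of the 10 genes per gene length, as log2 of deposited TPM + 0.1 (vertical axis), with genes ordered by their untreated mean and 1 point for each of the 8 libraries, coloured by dose in µg/ml. GPRC5A lies above the other genes in every library, at 118 TPM in untreated cells, and AQP5 lies at the bottom, with 0.0771 TPM in untreated cells.

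Against untreated cells, none of the 9 tested genes passed an adjusted p of 0.05 at 24 µg/ml, 2 were lower at 240 µg/ml, and 4 were lower and 1 higher at 480 µg/ml (edgeR's quasi-likelihood test, Benjamini-Hochberg adjustment over all tested genes). GPRC5A and RTKN2 fell at both higher doses, PDPN and EMP2 fell at 480 µg/ml, and CAV2 rose at 480 µg/ml. Among all tested genes, 0% were higher and 0% lower at 24 µg/ml, 5.16% higher and 5.17% lower at 240 µg/ml, and 13.9% higher and 13.9% lower at 480 µg/ml. Counts of called genes in the lists of related genes are to be read beside these shares. The median log2 fold change of the 9 genes was -0.26, -0.23 and -0.41 at the 3 doses in turn, beside 0.01 for all tested genes at each dose. The 3 comparisons share the untreated libraries. Whether the libraries of 2 groups overlap is given below as a description only. With 2 libraries a group it is weak evidence, and its share over all tested genes was not counted. At 24 µg/ml, 605 genes had an unadjusted p under 0.05, none of them among the 9, and DESeq2 called 36 genes, again none of the 9.

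**Figure D2:**
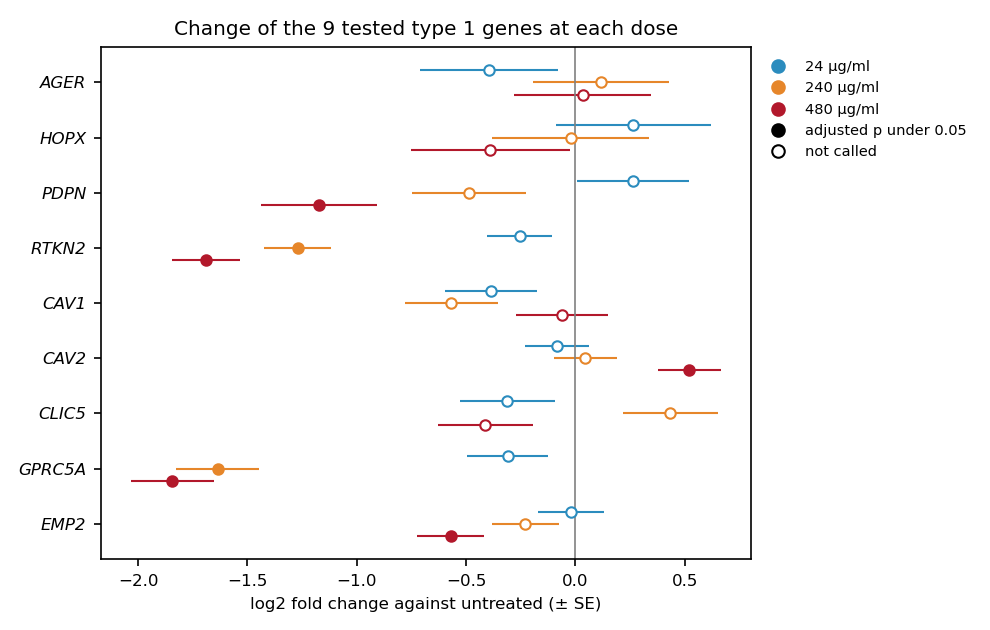
Log2 fold change against untreated cells (horizontal axis) with its SE as a line, for the 9 tested genes at 24, 240 and 480 µg/ml; filled points passed an adjusted p of 0.05. GPRC5A and RTKN2 have filled points at 240 and 480 µg/ml, between -1.27 and -1.84, and CAV2 has the only filled point above 0, at 0.52.

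The first genes by role are the surface proteins by which type 1 cells are recognised. AGER (chr6:32180969-32184253, minus strand) encodes the receptor for advanced glycation end products, which in the lung sits on the basal face of type 1 cells. It had 52 and 70 counts in untreated libraries, 41 and 69 at 24 µg/ml, 59 and 73 at 240 µg/ml, then 67 and 63 at 480 µg/ml. In scaled CPM these were 0.935 and 1.21, 0.620 and 1.01, 1.13 and 1.19, and 1.17 and 1.02. The ranges of all 3 treated groups overlapped that of the untreated libraries. The log2 fold change was -0.40 ± 0.32 (SE) at 24 µg/ml, 0.12 ± 0.31 at 240 µg/ml and 0.03 ± 0.31 at 480 µg/ml, and none passed the test. The order of the group means, from 240 µg/ml through 480 µg/ml and untreated to 24 µg/ml, has no neighbours that differed beyond their spread.

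Ligands of this receptor were measured beside it, from a list of 6 genes of which 2 were tested. S100P, a calcium-binding protein, fell at 240 µg/ml (-0.72 ± 0.18, adjusted p = 0.0356) and at 480 µg/ml (-1.33 ± 0.18, adjusted p = 0.00119). HMGB1, a chromatin protein that also acts outside the cell, fell likewise, by 0.50 on the log2 scale at 240 µg/ml (adjusted p = 0.0249) and by 0.77 at 480 µg/ml (adjusted p = 0.00159). S100B, which is also a ligand, had 0 counts in every library.

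PDPN (chr1:13583757-13617957, plus strand) encodes podoplanin, a mucin-type glycoprotein of the apical membrane that binds the ERM linker proteins of the actin cortex. Its scaled CPM was 5.14 and 7.05 in untreated libraries, 5.47 and 9.18 at 24 µg/ml, 4.03 and 4.67 at 240 µg/ml, then 2.68 and 2.72 at 480 µg/ml. The libraries of 240 µg/ml lay below both untreated ones, and those of 480 µg/ml lay below all other libraries. The log2 fold change was 0.27 ± 0.26 at 24 µg/ml, -0.49 ± 0.26 at 240 µg/ml (adjusted p = 0.27) and -1.17 ± 0.27 at 480 µg/ml (adjusted p = 0.0118), where the untreated mean was 2.25 times that of the treated libraries. Without untreated replicate 2 the last value was -0.93 and no longer passed (adjusted p = 0.0884). In the order of the means, 24, untreated, 240 and 480 µg/ml, the libraries of the first pair overlapped and those of the later neighbours did not, but no step between neighbours passed the test (adjusted p = 0.38 from 240 to 480 µg/ml).

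PDPN is also a gene of mesothelium and of lymphatic endothelium. The summed scaled CPM of 6 mesothelial genes was 20.1 to 20.3 in untreated libraries and 25.4 to 32.2 at 24 µg/ml. It was 15.02 to 23.3 at 240 µg/ml and 9.12 to 11.5 at 480 µg/ml. Of its 4 tested genes 1, CALB2, was lower at 480 µg/ml. CALB2 alone had a mean of 13.8 untreated, 22.8 at 24 µg/ml and 5.88 at 480 µg/ml. WT1 and UPK3B, which were not tested, had 0 counts in untreated libraries. At 480 µg/ml WT1 had 10 and 10 counts and UPK3B 4 and 8. The sum of 9 endothelial genes, none particular to lymphatic endothelium, was 32.5 to 34.7 untreated and 28.9 to 45.1 at 480 µg/ml. EGFL7 alone had a mean of 24.3 untreated and 28.7 at 480 µg/ml. All 9 endothelial genes were tested, and at 480 µg/ml 1 was higher (TEK) and 2 lower (CLDN5 and ESAM). Among all tested genes 13.9% were higher and 13.9% lower at that dose. TEK had 0 and 0 counts untreated and 10 and 11 at 480 µg/ml, and CLDN5 6 and 14, then 0 and 0. The part of mesothelial and endothelial cells in the PDPN values was not tested.

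Of 7 genes for proteins that bind podoplanin, 6 were tested, and 1 was higher and 2 lower at 480 µg/ml, while 2 were lower at 240 µg/ml. Among all tested genes 13.9% were higher and 13.9% lower at 480 µg/ml, and 5.17% were lower at 240 µg/ml. CD9, a tetraspanin, fell by 0.77 on the log2 scale at 240 µg/ml (adjusted p = 0.00948) and by 1.00 at 480 µg/ml (adjusted p = 0.000922). MSN, the ERM protein moesin, fell at both doses (-0.90 ± 0.15 and -0.86 ± 0.15, adjusted p = 0.0106 and 0.00383). LGALS8, a galectin, was higher at 480 µg/ml (0.62 ± 0.13, adjusted p = 0.00722). CD44, a hyaluronan receptor, had a log2 fold change of 0.13 ± 0.28 there. The other ERM genes, EZR and RDX, did not pass at 240 µg/ml or at 480 µg/ml (0.04 ± 0.11 and -0.03 ± 0.20 at 480 µg/ml). These ERM genes were named after their values were seen.

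AQP5 (chr12:49961872-49965682, plus strand) encodes a water channel of the apical membrane. It had 4 and 2 counts in untreated libraries, 0 and 2 at 24 µg/ml, 0 and 0 at 240 µg/ml, then 0 and 2 at 480 µg/ml. Where 0 reads were counted, up to 3 could have been missed, a limit of 0.0439 to 0.0576 scaled CPM across libraries, so only 1 library, with 4 counts, was above that limit, and no fold is given. Of 10 other aquaporin genes, 6 were tested. AQP11, an intracellular aquaporin, rose at 480 µg/ml (1.19 ± 0.24, adjusted p = 0.00767), and AQP1, the channel of endothelium and mesothelium, fell at 240 µg/ml (-1.49 ± 0.38, adjusted p = 0.0411) and at 480 µg/ml (-1.71 ± 0.38, adjusted p = 0.0112). AQP1 was itself low, at 44 and 44 counts in untreated libraries. AQP10 and AQP3, both of which also pass glycerol, did not pass at 480 µg/ml (-0.28 ± 0.16 and -0.22 ± 0.19).

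CAV1 and CAV2 encode the caveolins that coat caveolae, and caveolin-2 reaches the membrane in complexes with caveolin-1. CAV1 (chr7:116525009-116561185) had a scaled CPM of 6.38 and 6.91 in untreated libraries, 4.47 and 5.69 at 24 µg/ml, 5.11 and 3.87 at 240 µg/ml, then 7.21 and 5.54 at 480 µg/ml. The libraries of 24 and 240 µg/ml lay below both untreated ones, and those of 480 µg/ml on either side of them. The log2 fold change was -0.39 ± 0.21 at 24 µg/ml, -0.57 ± 0.21 at 240 µg/ml (adjusted p = 0.125) and -0.06 ± 0.21 at 480 µg/ml, and none passed. At 240 µg/ml it passed without either library of 480 µg/ml (-0.57, adjusted p = 0.0466 and 0.0471) and in a fit of these 2 groups alone (adjusted p = 0.0313). Neighbouring groups in the order of the means, untreated, 480, 24 and 240 µg/ml, did not differ beyond their spread.

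CAV2 (chr7:116499738-116508541) had a scaled CPM of 15.2 and 15.8 in untreated libraries, 13.7 and 15.6 at 24 µg/ml, 17.5 and 14.6 at 240 µg/ml, then 23.9 and 20.6 at 480 µg/ml. The libraries of 480 µg/ml lay above the other 6. Against untreated cells the log2 fold change was -0.08 ± 0.15, 0.05 ± 0.15 and, at 480 µg/ml, 0.52 ± 0.15 (adjusted p = 0.0277), with a mean 1.44 times that of untreated cells. This increase no longer passed without untreated replicate 1 (0.49, adjusted p = 0.15), without untreated replicate 2 (0.55, adjusted p = 0.122), in a fit of the 2 groups alone (adjusted p = 0.0836) or by limma on log2(TPM + 1) and log2(TPM + 0.1) (0.43 and 0.46, adjusted p = 0.133 and 0.126). From 240 to 480 µg/ml the change was 0.47 ± 0.15 (adjusted p = 0.255). Whether CAV1 and CAV2 responded differently was not tested, and 1.10% of the exonic bases of CAV2 overlap an antisense gene, which matters because the strand counted is not given in the sources used here.

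Of 9 other genes of the caveola 7 were tested, and 1 was lower at 240 µg/ml and 1 at 480 µg/ml. Among all tested genes 5.17% and 13.9% were lower at these doses. EHD2, an ATPase at the neck of caveolae, was lower at 480 µg/ml (-0.70 ± 0.19, adjusted p = 0.0249). CAVIN1, the cavin that caveolae require, was lower at 240 µg/ml (-0.63 ± 0.15, adjusted p = 0.034) and had a value of 0.05 ± 0.15 at 480 µg/ml; it was singled out after its values were seen. CAVIN4 and EHD4 did not pass at 480 µg/ml (-0.85 ± 0.37 and 0.23 ± 0.15), and CAV3, the muscle caveolin, had 0 counts in every library. Caveolins are abundant in fibroblasts and endothelium. The sum of 8 mesenchymal genes was 464 to 502 scaled CPM untreated and 431 to 490 at 480 µg/ml. Of the 8, 5 were lower at 480 µg/ml, none was higher and 3 were not called. LUM, which was not called, alone had a mean of 316 untreated and 364 at 480 µg/ml. COL3A1, one of those lower, had means of 53.3 and 26.1. The part of fibroblasts and endothelium in the caveolin values was not tested.

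**Figure D3:**
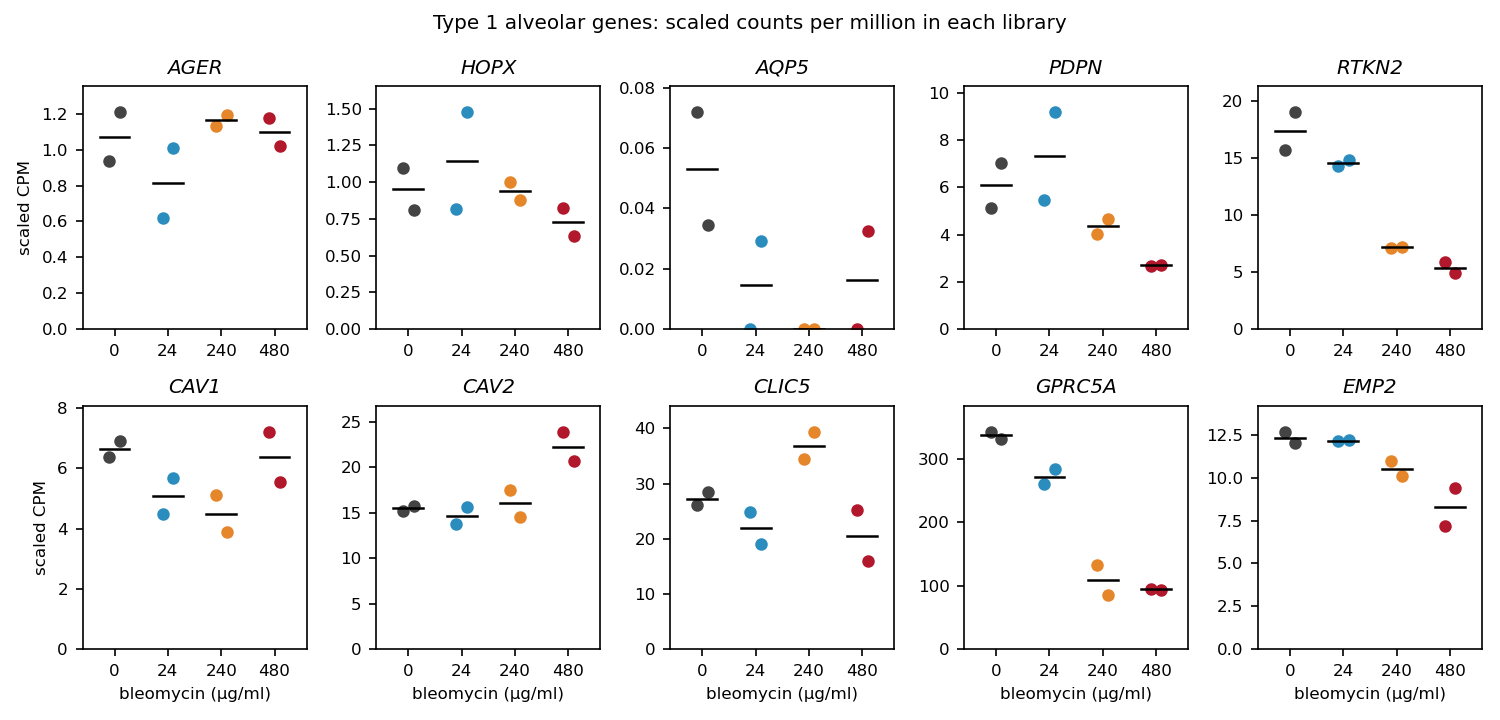
Scaled CPM (vertical axis, from 0 in each panel) of the 10 genes at 0, 24, 240 and 480 µg/ml bleomycin; points are single libraries, 2 a group, and the line is their mean. The means of GPRC5A, RTKN2 and EMP2 are lower at each higher dose. Of these steps only that from 24 to 240 µg/ml passed the test, for GPRC5A and RTKN2. GPRC5A is at 332 to 342 in untreated libraries and 92.7 to 95.1 at 480 µg/ml. The CAV2 libraries of 480 µg/ml, at 20.6 and 23.9, lie above the other 6.

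CLIC5 (chr6:45880827-46129819, minus strand) encodes a chloride intracellular channel protein that associates with ezrin at the actin cortex. Its scaled CPM was 26.1 and 28.5 in untreated libraries, 24.9 and 19.1 at 24 µg/ml, 34.4 and 39.4 at 240 µg/ml, then 25.1 and 15.9 at 480 µg/ml. The libraries of 240 µg/ml lay above the other 6, while those of 24 and 480 µg/ml lay below both untreated ones. The log2 fold changes against untreated cells were -0.31 ± 0.22, 0.43 ± 0.22 (adjusted p = 0.235) and -0.41 ± 0.22 (adjusted p = 0.191), and none passed. At 240 µg/ml CLIC5 passed in a fit of the 2 groups alone (0.44, adjusted p = 0.00908) and without either library of 480 µg/ml (adjusted p = 0.0356 and 0.0389).

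Between doses CLIC5 differed by 0.75 ± 0.22 from 24 to 240 µg/ml (adjusted p = 0.0731) and by -0.85 ± 0.22 from 240 to 480 µg/ml (adjusted p = 0.186), short of the threshold in both. DESeq2 called both steps, with adjusted p = 0.0112 and 0.0119. For CLIC5 the libraries of 480 µg/ml lay further apart than those of the other groups. Without replicate 1 of that dose the difference from untreated cells was -0.79 and passed (adjusted p = 0.00556), and the step from 240 µg/ml was -1.22 (adjusted p = 0.0104).

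Of the 5 other CLIC genes 4 were tested. CLIC6, found in secretory epithelia, and CLIC4, a widely expressed member, fell at 480 µg/ml (-0.80 ± 0.13 and -0.93 ± 0.18, adjusted p = 0.00242 and 0.00548). CLIC4 was also lower at 240 µg/ml (-0.84 ± 0.18, adjusted p = 0.0219). CLIC1, at 15116 or more counts in every library, did not pass (-0.11 ± 0.14 at 480 µg/ml). CLIC2 had at most 16 counts in a library, and CLIC3 at most 7.

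GPRC5A (chr12:12891562-12917937, plus strand) encodes an orphan receptor of the G protein-coupled class C, induced by retinoic acid and abundant in lung epithelium. It had 19026 and 19197 counts in untreated libraries, 17200 and 19403 at 24 µg/ml, 6878 and 5183 at 240 µg/ml, then 5421 and 5718 at 480 µg/ml. In scaled CPM these were 342 and 332, 260 and 284, 132 and 84.6, and 95.1 and 92.7. All 4 libraries of the higher doses lay below the other 4, and both libraries of 24 µg/ml lay below the untreated ones.

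GPRC5A had a log2 fold change of -0.31 ± 0.19 at 24 µg/ml, which did not pass, then -1.64 ± 0.19 at 240 µg/ml (adjusted p = 0.00284) and -1.84 ± 0.19 at 480 µg/ml (adjusted p = 0.000417). The untreated mean was 3.11 times that of 240 µg/ml and 3.59 times that of 480 µg/ml. The drop lay between 24 and 240 µg/ml (-1.33 ± 0.19, adjusted p = 0.0108), and the step to 480 µg/ml was -0.21 ± 0.19 (adjusted p = 0.762). The call between 24 and 240 µg/ml was lost without either library of 24 µg/ml or without replicate 2 of 240 µg/ml (adjusted p = 0.054 to 0.0976), with values of -1.39, -1.27 and -1.04. Of its exonic bases, 1.07% are shared with the microRNA gene MIR614.

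None of the other GPRC5 genes passed the test. GPRC5B had a log2 fold change of -0.36 ± 0.13 at 480 µg/ml (adjusted p = 0.0753) and GPRC5C one of 0.20 ± 0.17 (adjusted p = 0.406), and at the lower doses neither passed. GPRC5D had at most 6 counts in a library. The difference between GPRC5A and these relatives was not tested.

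EMP2 (chr16:10528422-10580598, minus strand) encodes a tetraspan membrane protein that acts on caveolae and integrins. Its scaled CPM was 12.7 and 12.0 in untreated libraries, 12.1 and 12.2 at 24 µg/ml, 10.95 and 10.1 at 240 µg/ml, then 7.21 and 9.40 at 480 µg/ml. The libraries of 240 and 480 µg/ml lay below both untreated ones, those of 480 µg/ml lowest. The log2 fold change was -0.02 ± 0.15, -0.23 ± 0.15 (adjusted p = 0.38) and -0.57 ± 0.15, the last passing the test (adjusted p = 0.0246). That call was lost without untreated replicate 1 (-0.53, adjusted p = 0.128), without untreated replicate 2 (-0.61, adjusted p = 0.093) and in a fit of the 2 groups alone (adjusted p = 0.095). The libraries of 240 µg/ml also lay below those of 24 µg/ml, but no step between neighbouring doses passed the test (adjusted p = 0.436 from 24 to 240 µg/ml and 0.456 from 240 to 480 µg/ml). Of the exonic bases of EMP2, 6.11% lie under an antisense gene.

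Its relatives EMP1, EMP3 and PMP22 were all tested. EMP1, a tetraspan protein of epithelia, fell at both higher doses (-2.13 ± 0.32 and -2.87 ± 0.33, adjusted p = 0.007 and 0.000651), and its counts went from 1304 and 1109 in untreated libraries to 331 and 210 at 240 µg/ml. PMP22, best known from myelin, was higher at 240 µg/ml (0.75 ± 0.17, adjusted p = 0.0265) and had a value of 0.23 ± 0.17 at 480 µg/ml. EMP3 did not pass (-0.61 ± 0.24 at 480 µg/ml).

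The last pair are intracellular proteins. RTKN2 (chr10:62183900-62268844, minus strand) encodes a protein of the rhotekin family. Its counts were 873 and 1102 in untreated libraries, 946 and 1013 at 24 µg/ml, 372 and 444 at 240 µg/ml, then 335 and 302 at 480 µg/ml. In scaled CPM these were 15.7 and 19.0, 14.3 and 14.8, 7.15 and 7.25, and 5.87 and 4.89. The libraries of the 4 groups did not overlap, each dose lying below the one before it, but of these steps only that from 24 to 240 µg/ml passed the test.

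RTKN2 had a log2 fold change of -0.26 ± 0.15 at 24 µg/ml, -1.27 ± 0.15 at 240 µg/ml (adjusted p = 0.00303) and -1.69 ± 0.15 at 480 µg/ml (adjusted p = 0.000278). The untreated mean was 2.41 and 3.23 times that of the 2 higher doses. As for GPRC5A, the step that passed was that from 24 to 240 µg/ml (-1.02 ± 0.15, adjusted p = 0.0123), and the step to 480 µg/ml was -0.42 ± 0.15 (adjusted p = 0.347). Without replicate 2 of 240 µg/ml the fall at that dose was -1.28 with an adjusted p of 0.0518, and the step from 24 µg/ml was lost without any 1 library of these 2 doses (-0.99 to -1.04, adjusted p = 0.0646 to 0.116). RTKN, its relative, did not pass at any dose (-0.36 ± 0.16 at 480 µg/ml, adjusted p = 0.135).

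HOPX (chr4:56647998-56681706, minus strand) encodes a small homeodomain protein that does not bind DNA itself and marks type 1 cells and their precursors. It had 61 and 47 counts in untreated libraries, 54 and 101 at 24 µg/ml, 52 and 54 at 240 µg/ml, then 47 and 39 at 480 µg/ml. The scaled CPM of 1.10 and 0.812 in untreated libraries overlapped every treated group, and replicate 2 of 24 µg/ml was the highest at 1.48. None of the changes passed, with -0.39 ± 0.36 at 480 µg/ml (adjusted p = 0.454). At such counts the SE of 0.35 to 0.36 limits what could be detected.

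Between the doses themselves, 2 of the 9 genes (GPRC5A and RTKN2) were lower and none higher at 240 than at 24 µg/ml, where 3.49% of all tested genes were lower and 3.34% higher. From 240 to 480 µg/ml none of the 9 passed, where 0.0273% of tested genes were higher and 0.229% lower. In that step 5 of the 9 (PDPN, CAV1, CAV2, CLIC5 and RTKN2) had an unadjusted p under 0.05 by edgeR, as did 2055 of the 18303 tested genes, and DESeq2 called 1, CLIC5. These 2 comparisons share the libraries of 240 µg/ml.

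Over the 8 libraries the log2 CPM values of GPRC5A and RTKN2 went most closely together (Pearson r = 0.96), and those of PDPN and RTKN2 nearly so (0.87). CAV2 and EMP2 ran opposite (-0.86), and CAV1 and CAV2 had an r of 0.55. These are descriptions over libraries that share 4 dose groups. Among about 9821 other genes whose mean log2 CPM was 3 or more, those most like RTKN2 were CTCF, AMD1 and SRSF1 (r = 0.997, 0.996 and 0.995), and those most like GPRC5A were ST6GALNAC3, NRARP and CYFIP1 (0.996, 0.992 and 0.991). PDPN was most like PTN, CPSF6 and IGFBP5 (0.991, 0.966 and 0.963), CAV2 most like AAGAB, SC5D and SRD5A1 (0.995, 0.979 and 0.976), and EMP2 most like LY6E, CDT1 and B4GALT2 (0.992, 0.991 and 0.990). An r does not measure the size of a change. At 480 µg/ml CYFIP1 (-0.23 ± 0.11, adjusted p = 0.135) and AAGAB (0.34 ± 0.12, adjusted p = 0.0588) did not pass the edgeR test. The other nearest genes passed it.

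A further list of 24 genes linked to type 1 cells was tested in full. At 240 µg/ml 3 were lower, beside 5.17% of all tested genes. At 480 µg/ml 6 were lower and 1 higher, beside 13.9% lower and 13.9% higher among all tested genes. The median log2 fold change of the 24 at 480 µg/ml was -0.45. MYRF, a transcription factor, and VEGFA, the growth factor by which type 1 cells signal to capillaries, fell by 0.70 and 0.65 on the log2 scale at 480 µg/ml (adjusted p = 0.0034 and 0.00581). KRT7, a keratin of simple epithelia, fell at 240 µg/ml (-1.12 ± 0.25, adjusted p = 0.0265) and at 480 µg/ml (-1.17 ± 0.25, adjusted p = 0.00917). NCKAP5 fell at 480 µg/ml (-1.32 ± 0.32, adjusted p = 0.0154). ANKRD1 and LIMCH1 were the others lower at 240 µg/ml (-0.54 ± 0.14 and -0.84 ± 0.18) and were lower at 480 µg/ml too (-0.47 ± 0.14 and -0.60 ± 0.18). NDNF was the 1 that rose at 480 µg/ml (0.89 ± 0.24, adjusted p = 0.0232); it, ANKRD1 and LIMCH1 were named after their values were seen.

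Of 10 genes for regulators of the type 1 fate, all tested, none passed at 240 µg/ml. At 480 µg/ml 3 were lower, beside 13.9% of all tested genes. KLF5, a zinc finger factor of alveolar cell choice, fell by 0.67 on the log2 scale (adjusted p = 0.0143) and HDAC2, a histone deacetylase, by 0.46 (adjusted p = 0.018). NKX2-1, the lung lineage factor, fell by 1.68 (adjusted p = 0.0301) from only 46 and 59 counts in untreated libraries. WWTR1, which encodes the YAP partner TAZ, did not pass (-0.45 ± 0.19, adjusted p = 0.108).

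**Figure D4:**
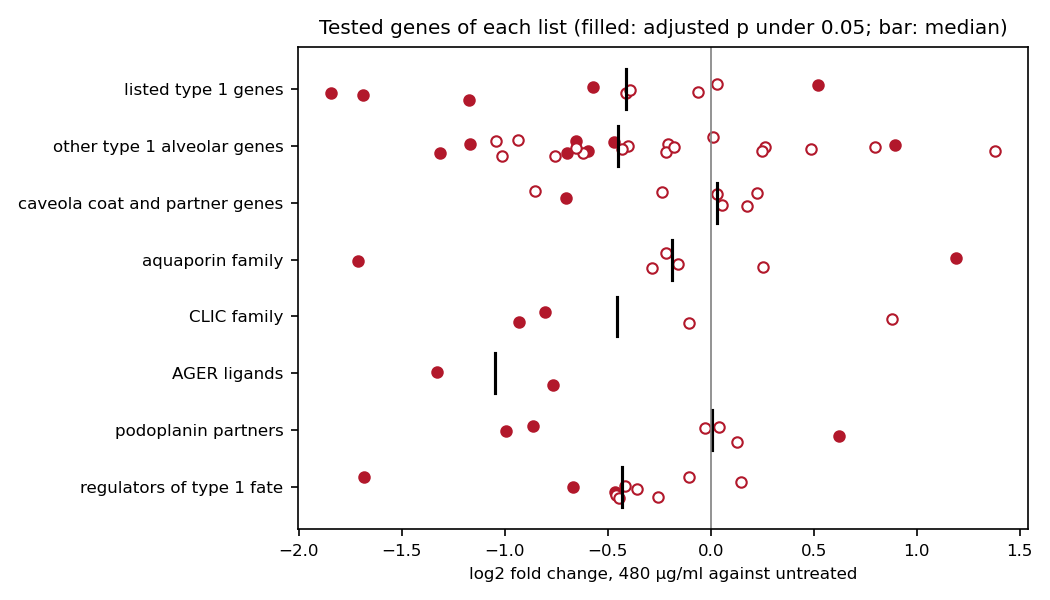
Log2 fold change at 480 µg/ml against untreated cells (horizontal axis) of the tested genes in 8 lists: the 9 tested type 1 genes, the 24 other type 1 genes and lists of partners and relatives; each point is a gene, filled where the adjusted p was under 0.05, and the bar is the median of the list. The listed and the other type 1 genes have medians of -0.41 and -0.45, with both called and uncalled genes on either side of 0 in the other type 1 list.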

How the data were processed

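The deposited tables hold whole-number read counts and TPM values per gene symbol for 8 libraries, made by the authors from TruSeq stranded mRNA libraries of 1 µg total RNA, per the labels' protocols. The submitters' processing notes name StringTie, HISAT2, Bowtie2 and Trimmomatic with the build GRCh38, while versions, annotation and the strand counted are not given in the sources used here. Deposited counts carry no normalization; the TPM values were length-scaled by the authors and were used for levels between genes and for 2 alternatives, and FPKM was not used. Table columns were matched to samples by their labels, with 0 columns left over.

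Counts were fitted with edgeR 4.0.16 in R 4.3.3 on the 8 libraries together, with a term for group and no other (TMM factors, filterByExpr with 10 counts and 15 in total, glmQLFit, glmQLFTest, 4 residual degrees of freedom). P-values are two-sided and Benjamini-Hochberg adjusted over all 18303 tested genes, with a threshold of 0.05. SE is the size of the log2 fold change divided by the square root of F. Scaled CPM uses TMM-scaled library sizes. Total counts of at least 53431773 per library set the precision; the floor of 3 counts covers counting error only. Coordinates and promoters are RefSeq, GRCh38.p14; overlaps of exons are from GENCODE on GRCh38.

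Alternatives were DESeq2 1.42.0, RLE factors, no filter, a filter of 50 counts in 2 libraries, a block for the replicate number, only the 2 groups compared, limma 3.58.1 on log2(TPM + 1) and log2(TPM + 0.1), and each library left out; a fit without scaling factors was added after seeing the data. The fit was tested on simulated data. The text gives all 10 genes and, from each list of related genes, up to 4 with the smallest p at 480 µg/ml, or the whole of a family of 5 or fewer; nearest genes are the 3 with the highest r for each gene called against untreated cells, with a prior count of 2 in log2 CPM. The 10 genes and the lists were chosen with earlier results of these data known.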

Additional observations from a re-analysis of the deposited data

How the results depend on the processing

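Of the log2 fold changes of the 9 genes under all alternatives, 711 kept their direction and side of the threshold, 17 lost a call, 18 gained one and 19 changed sign, and those that changed sign were all uncalled. GPRC5A and RTKN2 at 480 µg/ml, and GPRC5A at 240 µg/ml, kept their calls in every alternative run. No listed gene was called at 24 µg/ml in any of them. With only the 2 groups compared, 4 listed genes were called at 240 µg/ml and 3 at 480 µg/ml. Without a filter, 4 were called from 24 to 240 µg/ml. DESeq2 and the fit without a filter each called 1 from 240 to 480 µg/ml. When 1 library was left out, the listed genes called numbered 1 to 4 at 240 µg/ml, 2 to 6 at 480 µg/ml, 0 to 3 from 24 to 240 µg/ml and 0 to 2 from 240 to 480 µg/ml; where that leaves a group with 1 library, it is assumed to vary like the other groups. The causes were not tested.

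Counts of all genes called moved more. At 24 µg/ml (0 as reported) they were 36 by DESeq2, 83 without a filter, 2 with only the 2 groups, 1 by limma on log2(TPM + 0.1) and 0 to 24 with 1 library left out. At 240 µg/ml (1892) they were 2907 without a filter, 5306 with only the 2 groups and 118 to 5059 with 1 library left out. At 480 µg/ml (5085) they were 2746 with only the 2 groups and 2347 to 7949 with 1 library left out. From 24 to 240 µg/ml (1250) they were 2015 by DESeq2, 2375 without a filter, 4293 with only the 2 groups, 783 and 682 by limma on log2(TPM + 1) and log2(TPM + 0.1), and 0 to 4695 with 1 library left out. From 240 to 480 µg/ml (47) they were 324 by DESeq2, 465 without a filter, 0 with only the 2 groups, 11 and 12 by limma, 21 without scaling factors and 0 to 1542 with 1 library left out.

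The replicate number as a block gave 621 genes from 24 to 240 µg/ml, 8 from 240 to 480 µg/ml, 1289 at 240 µg/ml and 4385 at 480 µg/ml, and left the listed genes called at 0, 2, 5, 2 and 0 in the 5 comparisons. The deviations of libraries with the same number correlated at -0.0797 to 0.0449 across genes between groups, so no pairing by number was seen. Over all tested genes, with low-count genes among them, such a correlation cannot exclude pairing.

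Sign changes among uncalled values came with 1 library left out, over these ranges. At 24 µg/ml the log2 fold change was -0.16 to 0.59 for PDPN, -0.22 to 0.63 for HOPX, -0.18 to 0.0060 for CAV2 and -0.060 to 0.016 for EMP2. At 240 µg/ml it was -0.058 to 0.31 for AGER, -0.22 to 0.21 for HOPX and -0.092 to 0.17 for CAV2, which was also -0.058 and -0.063 by limma on log2(TPM + 1) and log2(TPM + 0.1). At 480 µg/ml it was -0.14 to 0.23 for AGER and -0.27 to 0.12 for CAV1. From 24 to 240 µg/ml it was -0.65 to 0.20 for HOPX, -0.39 to 0.0084 for CAV1 and -0.0090 to 0.26 for CAV2, and from 240 to 480 µg/ml -0.19 to 0.014 for AGER and -0.49 to 0.15 for GPRC5A. Depth limits AGER, HOPX and AQP5 most, the 3 genes with the fewest counts.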
